A study of Saccharomyces cerevisiae BY4741 with 8 samples.

Results

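The 2 doses of KP1019 tested on yeast genome arrays, 40 and 80 μg/ml, were compared with each other gene by gene. The members of this comparison are all 6388 genes spotted on the arrays, measured in 4 biological samples (2 a dose) on 8 of the 8 arrays of the series. For each gene the quantity compared is the difference of log2 treated over untreated signal, 80 minus 40 μg/ml. KP1019 is a ruthenium complex that carries indazole ligands and was developed as an anticancer drug. All cultures were labelled *S. cerevisiae* BY4741, a haploid MATa laboratory strain, and were grown in synthetic complete medium with glucose at 30C. Early log phase cultures were split, and 1 part was left untreated while the other received KP1019 for 3 h, so that treated cells at each dose have their own untreated cells as control. The cDNA of both was hybridized to 1 array in Cy5 and Cy3, and a second array with the dyes switched (dye reversal) was made of each biological sample. A log2 ratio of 1 means 2-fold more signal in treated cells, and a positive difference means a ratio that was higher at 80 than at 40 μg/ml. No label gives the day, slide or scan of an array, and no sample carries both doses, so that dose and array series cannot be told apart in any value below.

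Budding yeast cells that meet DNA damage switch on checkpoint kinases, which hold the cell cycle before anaphase and raise the transcripts of ribonucleotide reductase and of *HUG1*. Many stresses also lower the transcripts of ribosomal proteins and other parts of the translation machinery, which make up much of the mRNA of a growing cell. Genes for phospholipid synthesis, iron uptake, zinc uptake and drug efflux each answer to dedicated transcription factors, and their transcripts move with the supply of the nutrient or with the presence of a foreign compound.

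The strain given by the labels was checked first, on the untreated channel. The foreground intensity of each gene was ranked among all genes of its channel, from 0 (dimmest) to 100 (brightest), and the rank of a gene was compared with its own rank on the other arrays. The genes that mark a MATa cell were bright on the arrays labelled 80 μg/ml and dim on those labelled 40 μg/ml. *MFA1*, which encodes the a-factor pheromone, had ranks of 98.0 to 100 on the 4 arrays of 80 μg/ml and of 20.7 to 30.8 on the 4 arrays of 40 μg/ml. *AGA2*, a subunit of the a-agglutinin, had ranks of 87.0 to 97.8 against 13.5 to 18.9, and *BAR1*, the protease that cleaves alpha-factor, 81.1 to 88.0 against 13.6 to 15.6. Genes that mark a MATalpha cell had the opposite order. *MF(ALPHA)1*, the main alpha-factor gene, had ranks of 81.3 to 86.4 on the arrays of 40 μg/ml and of 4.74 to 9.66 on those of 80 μg/ml, and *SAG1*, the alpha-agglutinin, 80.4 to 87.7 against 28.4 to 37.3. Over the 6 MATa genes examined the median rank was 14.7 to 17.9 on the arrays of 40 μg/ml and 90.8 to 97.0 on those of 80 μg/ml, and over the 4 MATalpha genes it was 70.9 to 78.4 and 8.56 to 13.05. The treated channel had the same order, with 14.5 to 30.1 against 76.6 to 90.7 for the MATa genes and 56.0 to 61.6 against 13.4 to 19.54 for the MATalpha genes. The arrays labelled 40 μg/ml thus go against the MATa label of their strain, in both biological samples and both channels, while those labelled 80 μg/ml carry it. The other markers of BY4741 did not separate the doses as clearly. *URA3*, which this strain lacks, was at ranks up to 6.998 on all 8 arrays, and *LEU2*, also deleted, at 16.4 to 29.7 at 40 and 0.36 to 16.2 at 80 μg/ml. In the untreated channel *LEU2* exceeded the blanks on 4 arrays of 40 and 1 of 80 μg/ml, and in the treated channel on 1 and 2. *MET17*, also deleted in BY4741, had ranks of 77.5 to 94.3 and *HIS3*, of which a part is deleted, 76.7 to 92.6, and on all 8 arrays both exceeded the blanks in either channel. The *MET17* signal thus went against the strain label at both doses, for a reason that was not tested. Because every array of a dose shares its mating-type pattern, no value below could be computed without that pattern, and dose, array series and the cells' mating-type signal cannot be told apart.

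A wider look at the untreated channel, made after the mating-type genes were seen, asked for genes whose lowest rank at one dose lay at least 30 points above their highest rank at the other. This held for 18 genes (0.282% of 6388) brighter on the arrays of 80 μg/ml and for 30 (0.47%) brighter on those of 40 μg/ml. Among the former were 5 of the 6 MATa genes, and among the latter 3 of the 4 MATalpha genes. The latter also held *PHO84*, the high-affinity phosphate transporter (ranks 87.9 to 92.6 at 40 and 15.6 to 24.7 at 80 μg/ml), its co-regulated gene *SPL2* (83.8 to 89.1 against 8.27 to 25.8), and the acid phosphatase genes *PHO11* and *PHO12*, whose sequences are nearly alike. *VHT1*, the biotin transporter (86.8 to 89.9 against 21.7 to 32.1), and the biotin synthesis genes *BIO3* (89.5 to 96.0 against 12.9 to 19.0) and *BIO4* (95.2 to 98.1 against 29.4 to 45.98) were in the same set. These are levels in cells that never met the drug. Log2 untreated intensities correlated across genes with r of 0.891 to 0.945 among the arrays of 40 μg/ml, 0.783 to 0.897 among those of 80 μg/ml and 0.750 to 0.841 between doses, a description in which arrays of 1 sample share their RNA.

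**Figure D1:**
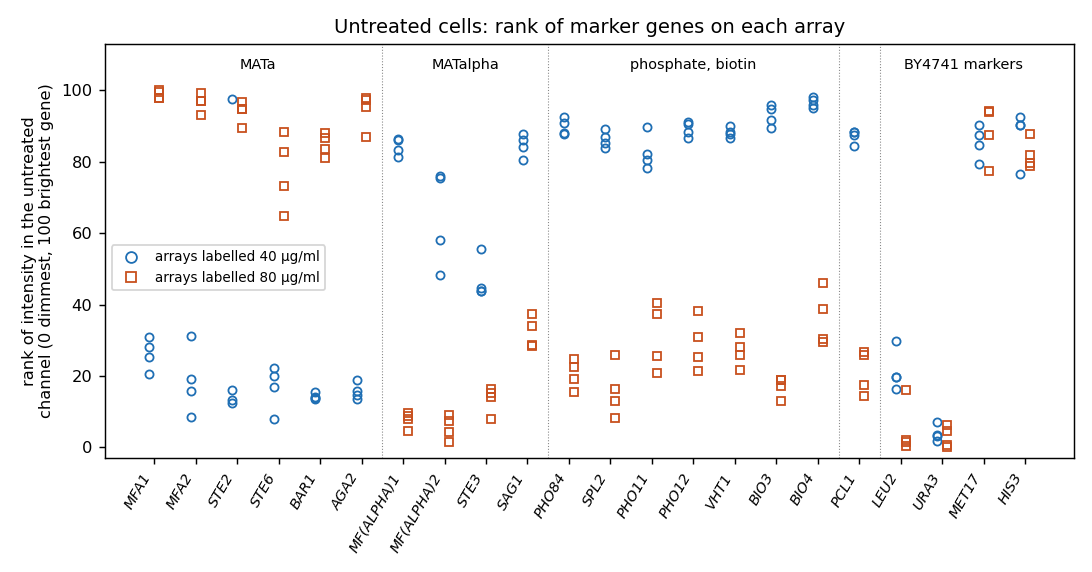
Rank of the intensity of marker genes in the untreated channel (y axis, 0 dimmest to 100 brightest of all genes) on the 4 arrays labelled 40 μg/ml (circles) and the 4 labelled 80 μg/ml (squares), grouped as MATa genes, MATalpha genes, phosphate and biotin genes, *PCL1*, and genes deleted wholly or in part in BY4741. MATa genes lie high at 80 μg/ml and low at 40 μg/ml, except *STE2* on 1 array of 40 μg/ml at 97.6, and the next 2 groups and *PCL1* (84.3 to 88.4 against 14.3 to 26.8) lie the other way.

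As for the arrays themselves, 67.5% to 98.5% of gene spots in the treated and 86.4% to 99.2% in the untreated channel were brighter than the blank spots by more than 3 median absolute deviations. The median absolute deviation of the log2 ratios was 0.68 in sample 1 and 0.39 in sample 2 of 40 μg/ml, and 0.33 and 0.32 in the samples of 80 μg/ml, so that sample 1 of the lower dose had the widest spread of these 4. Across genes, the samples of 1 dose correlated with r = 0.727 at 40 and 0.722 at 80 μg/ml, and samples of different doses with r between 0.315 and 0.505. The labels call the samples biological and do not say how their cultures were kept apart, so p-values measure the spread between these samples, whose small number limits the precision. For a single value, an exact permutation test of 2 samples against 2 cannot give a two-sided p below 0.333, and all p-values below therefore come from limma, fitted over all genes with 1 spread shared by both doses.

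At an adjusted p under 0.05 (limma, Benjamini-Hochberg over 6388 genes), 9 genes differed between the doses. The ratio was higher at 80 μg/ml for 3 genes (0.047% of all) and lower for 6 (0.0939%). For all 9, the 4 arrays of one dose lay entirely beyond the 4 of the other. Of these genes, 5 differed from untreated cells only at 80 μg/ml (*INO1*, *WSC4*, *ZPS1*, *NFG1* and *YGR035C*), 3 only at 40 μg/ml (*HSP26*, *PCL1* and *DSE2*), and *YHR033W* did at both. For *DSE2* no difference could have been seen at 80 μg/ml, where its spot exceeded the blanks in each channel on 1 of 4 arrays. The gene that came next, *SER3*, had an adjusted p of 0.0643, and 50 genes were under 0.1. Against untreated cells, 13% of all genes were higher and 10.3% lower at 40 μg/ml, and 2.11% were higher and 1.41% lower at 80 μg/ml, at the same threshold. The larger number at 40 μg/ml (1489 against 225 genes) was not kept with samples scaled to the same spread (1284 against 1294), with array weights (721 against 1293) or without sample 1 of 40 μg/ml (1080 against 1415).

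**Figure D2:**
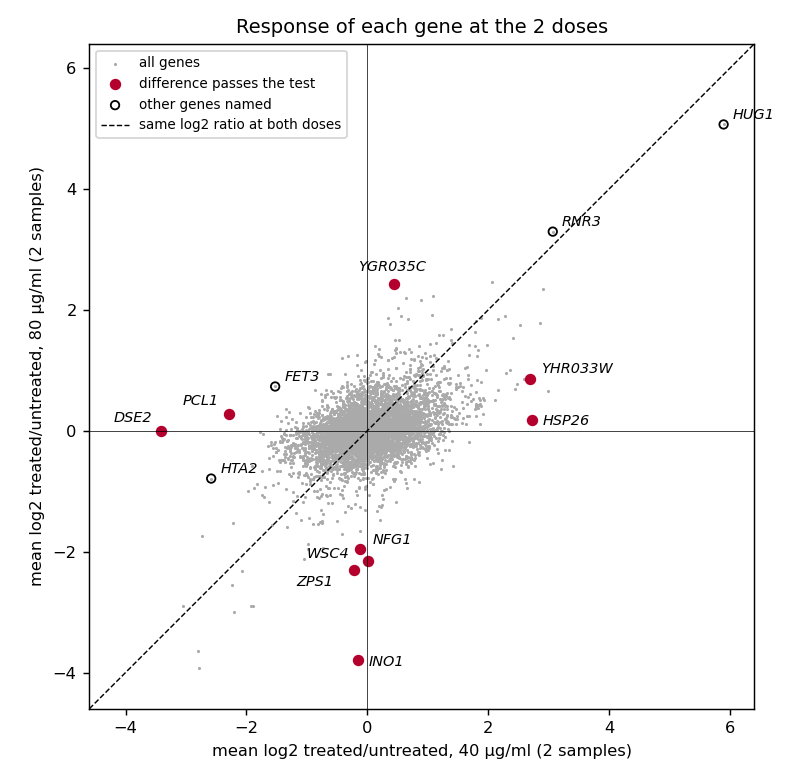
Mean log2 treated over untreated ratio of each gene at 40 μg/ml (x axis) and 80 μg/ml (y axis), each from 2 biological samples, with the dashed line where both are equal. The 9 genes whose difference passes the test (filled) lie near an axis, with a response close to 0 at one of the doses, except *YHR033W* at 2.69 and 0.86, and *HUG1* lies at 5.90 and 5.07.

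*INO1* encodes inositol-3-phosphate synthase, the enzyme that makes inositol from glucose 6-phosphate. Its log2 ratios were -0.21 and -0.09 in the samples of 40 μg/ml and -3.67 and -3.93 in those of 80 μg/ml. The transcript was thus near its untreated level at the lower dose and far under it at the higher, with no overlap. The means were -0.15 ± 0.08 and -3.80 ± 0.19 (SD, n = 2), and the difference was -3.65 (SE 0.23, limma adjusted p = 0.00174). Its untreated rank was 96.4 to 98.6 at 40 and 77.8 to 92.5 at 80 μg/ml.

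*WSC4* encodes a membrane protein of the family of cell wall stress sensors. Its ratios were -0.03 and 0.04 at 40 and -2.04 and -2.28 at 80 μg/ml (difference -2.16, SE 0.23, limma adjusted p = 0.0239). *ZPS1*, a secreted protein whose gene is a target of the zinc regulator Zap1, had -0.13 and -0.30 against -2.27 and -2.33 (difference -2.08, SE 0.23, limma adjusted p = 0.0239). Both were close to 0 in every sample of the lower dose and fell at the higher dose. *NFG1*, described in yeast as a negative regulator of filamentous growth, had -0.16 and -0.08 against -1.999 and -1.93 (difference -1.84, SE 0.22, limma adjusted p = 0.0376). At 40 μg/ml its treated signal exceeded the blanks on 0 of 4 arrays, and its untreated rank was 6.83 to 13.4 there against 24.7 to 59.2 at 80 μg/ml, so that its ratio at 40 μg/ml is read from a spot at or near background.

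*YGR035C*, an uncharacterized gene in the list of targets of the drug resistance regulators Pdr1 and Pdr3, was among the genes that passed with a ratio that was higher at 80 μg/ml. Its log2 ratios were 0.42 and 0.46 at 40 and 2.41 and 2.46 at 80 μg/ml, so that the samples of a dose nearly coincided and the doses were far apart. The difference was 1.99 (SE 0.22, limma adjusted p = 0.0239), and the untreated ranks, 19.9 to 23.9 and 15.6 to 38.3, overlapped between the doses. The call was lost in 5 of 17 other settings.

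*HSP26* encodes a small heat shock protein that binds unfolded proteins. Its ratios were 2.92 and 2.53 at 40 and 0.20 and 0.16 at 80 μg/ml (difference -2.55, SE 0.24, limma adjusted p = 0.0185). The mean treated rank was 98.4 at 40 and 97.6 at 80 μg/ml, whereas the untreated rank was 74.8 to 88.5 at 40 and 94.9 to 98.2 at 80 μg/ml, so that the treated cells ranked alike and the untreated cells did not. *YHR033W*, an uncharacterized gene, had 2.85 and 2.54 at 40 and 0.84 and 0.87 at 80 μg/ml (difference -1.83, SE 0.24, limma adjusted p = 0.0498), a call that was lost in 9 of 17 other settings (adjusted p up to 0.326), with untreated ranks that overlapped (36.5 to 68.7 and 41.5 to 69.9).

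*PCL1* encodes a cyclin of G1 phase that partners the kinase Pho85. It was at -2.60 and -1.97 at 40 and at 0.39 and 0.15 at 80 μg/ml (difference 2.55, SE 0.28, limma adjusted p = 0.0239). The untreated cells of the arrays of 40 μg/ml had it at ranks of 84.3 to 88.4 and those of 80 μg/ml at 14.3 to 26.8, so that the lower ratio stood on a much brighter untreated signal. *DSE2*, a secreted protein of daughter cells that helps cells separate, was at -3.38 and -3.45 at 40 and at -0.02 and -0.00 at 80 μg/ml. Its spot exceeded the blanks on all 4 arrays of the lower dose and, in each channel, on 1 of 4 of the higher, so that its difference of 3.40 (SE 0.22, limma adjusted p = 0.00174) sets a measured ratio against a spot without signal, and no fold between doses is read from it.

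**Figure D3:**
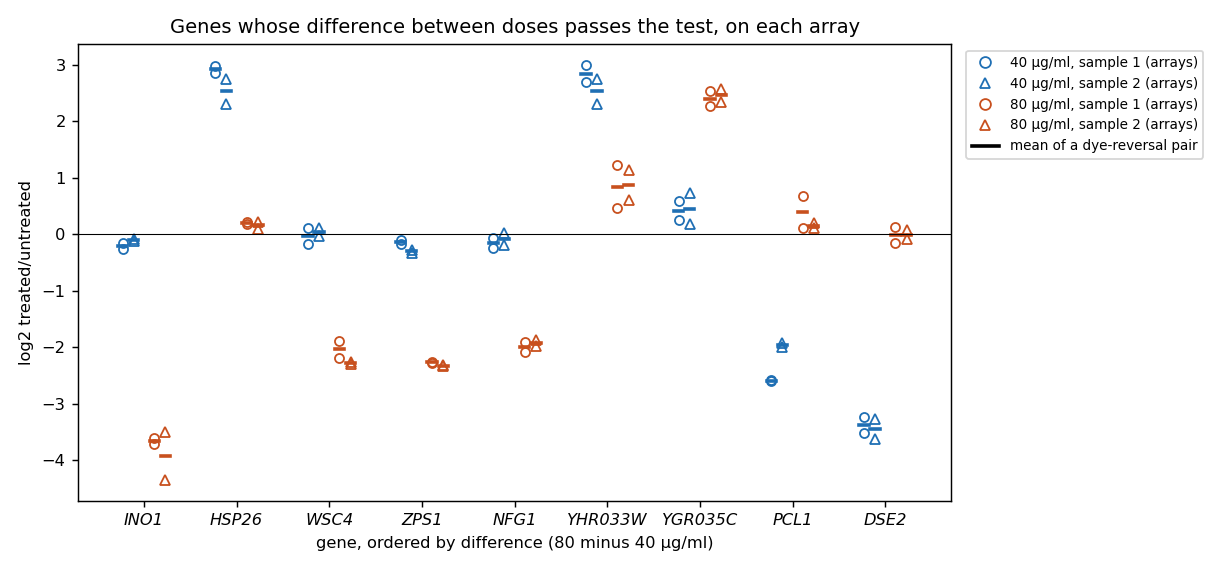
Log2 treated over untreated ratio (y axis) of the 9 genes whose difference passes the test, on each array of sample 1 (circles) and sample 2 (triangles) at 40 μg/ml (blue) and 80 μg/ml (orange), with the mean of each dye-reversal pair as a bar. No array of a dose overlaps those of the other dose, from *INO1* (difference -3.65) to *DSE2* (3.40), whose values at 80 μg/ml come from a spot mostly at background.

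A further group of genes had all 8 arrays apart, an unadjusted p under 0.05 and a signal above the blanks, but did not pass after adjustment. There were 512 genes of this kind with a higher and 547 with a lower ratio at 80 μg/ml. Among those with the largest higher differences were *FET3* and *FTR1*, the ferroxidase and the permease of high-affinity iron uptake. *FET3* had -1.89 and -1.16 at 40 and 1.02 and 0.45 at 80 μg/ml (difference 2.26, SE 0.32, limma adjusted p = 0.066), and *FTR1* had -1.65 and -1.04 against 0.23 and 0.49 (1.71, SE 0.28, limma adjusted p = 0.0873). Both were lower in treated than in untreated cells at 40 μg/ml (limma adjusted p = 0.00757 and 0.00721) and did not pass the test at 80 μg/ml. The histone gene *HTA2* was at -2.92 and -2.24 against -0.79 and -0.79 (difference 1.79). *KAR2*, the Hsp70 chaperone of the endoplasmic reticulum, had -2.85 and -0.70 against 0.07 and -0.09 (1.76), *OLA1*, an ATPase, -2.01 and -0.98 against 0.75 and -0.27 (1.73), and *NCW2*, a cell wall protein, -1.36 and -2.11 against -0.36 and 0.26 (1.68). In *KAR2* the samples of 40 μg/ml, and in *OLA1* those of either dose, lay farther from each other than the nearest samples of the 2 doses. For *NCW2* the mean treated rank was 72.2 at 40 and 73.3 at 80 μg/ml, whereas the mean untreated rank was 92.6 and 73.0. Its treated cells thus ranked alike and its untreated cells did not.

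On the other side, *YKR012C* had 3.56 and 2.41 at 40 and 0.73 and 0.59 at 80 μg/ml (difference -2.33, SE 0.37, limma adjusted p = 0.0796). *CPS1*, a vacuolar carboxypeptidase, had 1.45 and 1.38 against 0.17 and -1.35 (-2.002), the last 2 values being far apart. *MOG1*, which acts in nuclear protein import, had 1.45 and 0.97 against -0.58 and -0.68 (-1.84, SE 0.26, limma adjusted p = 0.0659). Its systematic name, YJR074W, is next to that of *OPI3* (YJR073C), described below among the phospholipid genes.

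To see which functions shifted with dose, 56 gene lists with 1668 genes in all were described. No list was tested as a set, and each is read against all genes, whose median difference was 0.01. At an unadjusted p under 0.05, 9.82% of all genes had a higher and 11.1% a lower ratio at 80 μg/ml. Both samples of 80 μg/ml lay above both of 40 μg/ml for 28% of genes and below for 28.5%, and all 8 arrays were apart in these directions for 12.2% and 12.3%. In 11 lists the median lay at least 0.3 above that of all genes, and in 5 at least 0.3 below. Of these 16 lists, 7 came within 0.3 of all genes when 1 sample was left out, 6 of them without sample 1 of 40 μg/ml. Counting also lists with a gene that passed, 19 lists are described one by one, and the medians of the other 37 lay between -0.24 and 0.30.

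**Figure D4:**
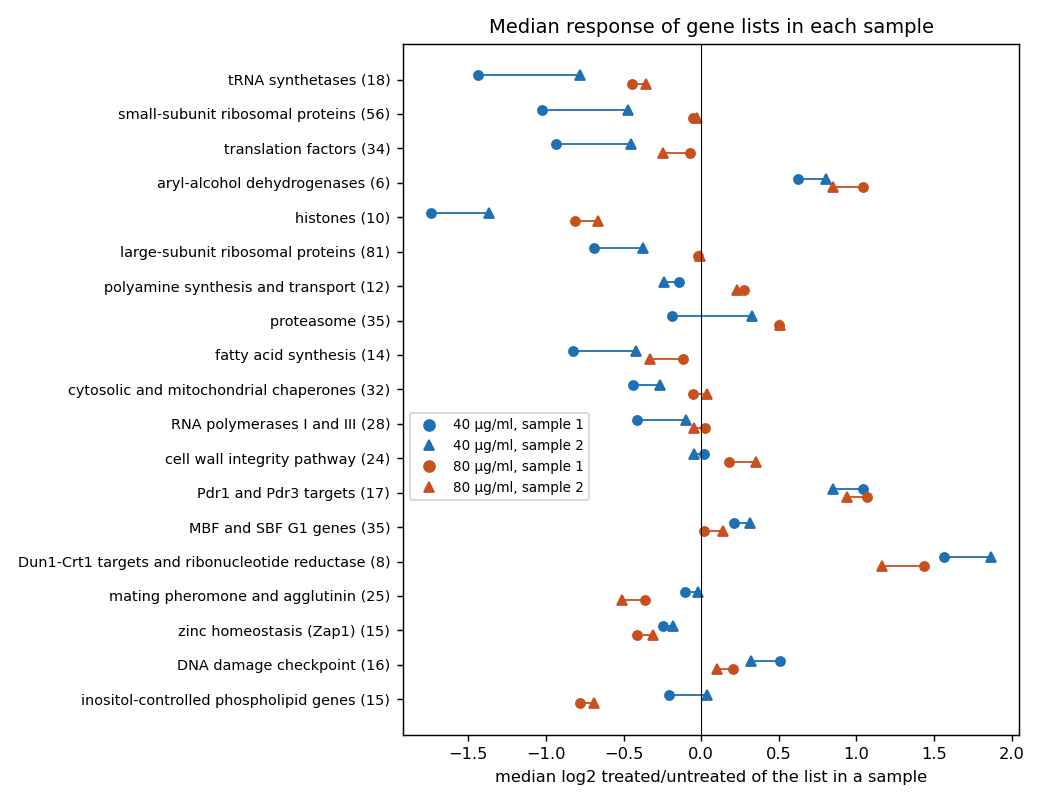
Median log2 treated over untreated ratio of the 19 described lists (number of measured genes in brackets) in sample 1 (circles) and sample 2 (triangles) of 40 μg/ml (blue) and 80 μg/ml (orange). The medians of the 4 translation lists lie between -0.37 and -1.44 at 40 μg/ml and between -0.44 and -0.01 at 80 μg/ml, whereas the list of inositol-controlled genes lies lower at 80 μg/ml.

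Genes of the translation machinery mostly had lower ratios at 40 than at 80 μg/ml. The median log2 ratio of 56 genes for small-subunit ribosomal proteins was -1.03 and -0.47 in the samples of 40 μg/ml and -0.06 and -0.03 in those of 80 μg/ml, a median difference of 0.75. At 40 μg/ml, 30 of the 56 were lower in treated cells at an adjusted p under 0.05, and at 80 μg/ml 0 were. Between the doses, 31 had a higher ratio at 80 μg/ml at an unadjusted p under 0.05 and 0 a lower one, and in 37 all 8 arrays were apart, while 0 passed after adjustment. *RPS11A*, for example, had -1.80 and -0.97 at 40 and 0.06 and -0.14 at 80 μg/ml (difference 1.34, SE 0.31, limma adjusted p = 0.134), and *RPS9B* differed by 1.21. The 81 genes for large-subunit proteins had medians of -0.69 and -0.37 against -0.02 and -0.01, with 33 higher and 1 lower at an unadjusted p under 0.05. *RPL9A* (1.27), *RPL26A* (1.12) and *RPL17B* (0.98) had the smallest p-values among them. Most ribosomal proteins are encoded by a pair of near-identical genes, and the array cannot be expected to separate the transcripts of such a pair. Of these genes, 126 were in the top decile of brightness, where their median difference was 0.57 and that of the other genes -0.08.

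Factors of translation and of tRNA charging had the same order of doses. The 34 translation factor genes had medians of -0.94 and -0.45 at 40 and of -0.07 and -0.24 at 80 μg/ml, and 15 were higher and 0 lower between doses at an unadjusted p under 0.05. *FUN12*, the initiation factor eIF5B, had -1.41 and -0.70 against 0.15 and -0.01 (difference 1.13), *TEF4*, an elongation factor 1B subunit, differed by 1.22 and *TIF1*, the eIF4A helicase, by 1.32. The 18 aminoacyl-tRNA synthetase genes had medians of -1.44 and -0.78 against -0.44 and -0.35, with 9 higher and 2 lower, and *GRS1*, the glycyl-tRNA synthetase, was the most even of them, at -1.30 and -1.27 against -0.42 and -0.42 (0.86, SE 0.22, limma adjusted p = 0.137). *MES1* and *FRS1*, which charge methionine and phenylalanine, differed by 1.04 and 0.95. Without sample 1 of 40 μg/ml, the median difference was 0.46 for the small-subunit proteins and 0.49 in place of 0.78 for the synthetases. Of the 189 genes in these 4 lists, 102 were lower and 1 higher in treated cells at 40 μg/ml at an adjusted p under 0.05, beside 10.3% and 13% of all genes, and 0 passed in either direction at 80 μg/ml. The 28 subunits and factors of RNA polymerases I and III, which transcribe rRNA and tRNA, had smaller medians (-0.41 and -0.10 against 0.02 and -0.05), with 8 higher and 0 lower. *RRN3*, an initiation factor of polymerase I, *RPC37* and *RPC34* differed by 0.80, 0.83 and 0.78. Without sample 1 of 40 μg/ml the median difference of the polymerase list was 0.13 in place of 0.33.

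**Figure D5:**
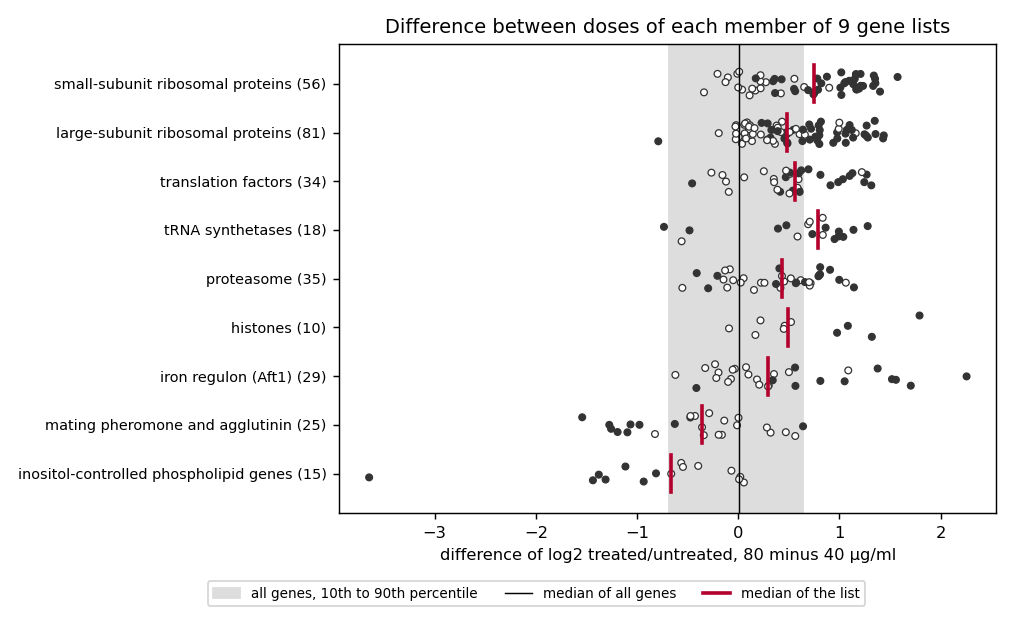
Difference of log2 treated over untreated, 80 minus 40 μg/ml (x axis), of each measured member of 9 lists, filled where all 8 arrays of the doses are apart, with the list median (red), the median of all genes (black line) and their 10th to 90th percentile (grey). Ribosomal protein and translation genes lie mostly to the right as a body (medians 0.48 to 0.78), whereas the lists of iron, mating and inositol-controlled genes are spread, with members such as *FET3* (2.26) and *INO1* (-3.65) far from the rest.

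Protein folding and degradation lists also had higher ratios at 80 μg/ml. The 35 proteasome genes had medians of -0.19 and 0.32 at 40, where the samples lay on both sides of 0, and of 0.50 and 0.51 at 80 μg/ml, with 10 higher and 0 lower at an unadjusted p under 0.05. *SCL1* and *PRE1*, subunits of the 20S core, differed by 1.14 and 0.81, and *RPT5*, an ATPase of the cap, by 0.79. The median difference of 0.43 was 0.17 without sample 1 and 0.66 without sample 2 of 40 μg/ml. The 32 chaperone genes had medians of -0.44 and -0.26 against -0.05 and 0.04. Their median difference of 0.33 was 0.26 without sample 1 and 0.44 without sample 2 of 40 μg/ml. It was 0.36 without sample 1 and 0.27 without sample 2 of 80 μg/ml. *STI1*, an Hsp90 co-chaperone, had -0.95 and -0.65 against 0.53 and 0.08 (difference 1.10), *APJ1*, an Hsp40 protein, -0.80 and -0.89 against 0.06 and 0.03 (0.89), and *HSP104*, the disaggregase, -0.82 and -0.40 against 0.12 and 0.20 (0.77). *HSP26*, of the same list, had the opposite order, and 7 of the 32 were higher and 2 lower at an unadjusted p under 0.05. The 10 histone genes stayed below untreated cells at both doses, at -1.74 and -1.36 against -0.81 and -0.67. At an adjusted p under 0.05, 9 were lower than in untreated cells at 40 and 2 at 80 μg/ml. The shares of all genes that were lower also fell, from 10.3% at 40 to 1.41% at 80 μg/ml. *HTB2* and *HTB1*, both H2B genes, differed by 0.98 and 1.08, and histone genes too come in similar pairs. The median difference of the histone list, 0.49, lay between 0.11 and 0.78 over 17 other settings.

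Smaller lists of metabolism also had higher medians at 80 μg/ml. The 14 genes of fatty acid synthesis had medians of -0.83 and -0.42 against -0.12 and -0.33, led by *FAA4*, an acyl-CoA synthetase (difference 1.14), *IFA38* (0.82) and the acyl-CoA binding protein *ACB1* (0.68). The 12 genes of polyamine synthesis and transport had -0.14 and -0.24 against 0.28 and 0.23. *OAZ1*, the ornithine decarboxylase antizyme, differed by 0.63, *SPE1*, the decarboxylase itself, by 0.70, and the exporter *TPO4* by 0.54. The higher ratios of *OAZ1* and *TPO4* stood on dimmer untreated signals. Mean untreated ranks at 40 and 80 μg/ml were 66.2 and 35.6 for *OAZ1* and 89.3 and 67.6 for *TPO4*. Their treated ranks were 70.8 and 53.5, and 80.7 and 62.7. *SPE1* had untreated ranks of 48.1 and 61.0 and treated ranks of 48.8 and 75.9. The 6 aryl-alcohol dehydrogenase genes, whose sequences are alike, had medians of 0.62 and 0.81 against 1.04 and 0.85. At an adjusted p under 0.05, 5 were above untreated cells at 40 and 3 at 80 μg/ml. The shares of all genes above untreated cells were 13% and 2.11%. Differences for *AAD6*, *AAD14* and *AAD10* were 0.65, 0.66 and 0.52. The arrays of *AAD10* overlapped between the doses. Its mean untreated rank was 77.2 at 40 and 33.1 at 80 μg/ml and its mean treated rank 75.5 and 44.0, so that its higher ratio stood on a dimmer untreated signal. In these 3 lists 3, 3 and 2 genes had a higher and 1, 0 and 0 a lower ratio at an unadjusted p under 0.05. Of all genes, 9.82% were higher and 11.1% lower at that level. The median difference of the fatty acid list, 0.41, was 0.18 without sample 1 and 0.69 without sample 2 of 40 μg/ml, and that of the dehydrogenases, 0.54, was 0.35 without sample 1 of 40 and 0.34 without sample 1 of 80 μg/ml.

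Genes under inositol control had lower ratios at 80 μg/ml well beyond *INO1*. The medians of the 15 genes were -0.21 and 0.04 at 40 and -0.78 and -0.69 at 80 μg/ml, and 8 of 15 were lower and 0 higher between doses at an unadjusted p under 0.05, of which *INO1* alone passed after adjustment. *CHO1*, which makes phosphatidylserine, had 0.40 and 0.35 against -0.95 and -0.92 (difference -1.31, SE 0.22, limma adjusted p = 0.0938). *OPI3*, a methyltransferase of phosphatidylcholine synthesis, had 0.82 and 0.45 against -0.92 and -0.69 (-1.44, SE 0.25, limma adjusted p = 0.0938). Further enzymes of the same route and a transporter, chosen after their values were seen, lay alongside. *PSD1*, which makes phosphatidylethanolamine, had 0.38 and 0.14 against -1.27 and -0.97 (-1.38), *CHO2*, the first methyltransferase, 1.17 and 0.57 against -0.28 and -0.21 (-1.11), and *ITR1*, the inositol transporter, -0.41 and -0.22 against -1.58 and -0.92 (-0.93). The regulators did not share this, as *INO2* and *OPI1* differed by -0.07 and 0.06. In 7 of the 15 genes all 8 arrays were apart, beside 12.3% of all genes.

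Targets of the checkpoint kinase Dun1 and the checkpoint genes themselves had lower medians at 80 μg/ml, whereas the 47 genes of DNA repair had medians of 0.13 and 0.17 at 40 and 0.19 and 0.21 at 80 μg/ml, with 4 higher and 4 lower between doses at an unadjusted p under 0.05. *HUG1* had log2 ratios of 5.99 and 5.80 at 40 and 5.30 and 4.84 at 80 μg/ml (difference -0.83, SE 0.26, limma adjusted p = 0.161), and its arrays overlapped between the doses. *RNR3*, the damage-induced large subunit of ribonucleotide reductase, had 3.22 and 2.92 against 3.50 and 3.09 (0.23), *RNR2* 2.09 and 2.24 against 1.68 and 2.01 (-0.32) and *RNR4* 2.76 and 3.04 against 2.87 and 1.82 (-0.56). None of these 4 differences passed, and each of the 4 transcripts was above untreated cells at both doses (adjusted p under 0.05). The 8 genes of this list had medians of 1.57 and 1.87 against 1.43 and 1.16. At an unadjusted p under 0.05, 1 of the 8 was lower, near the share of all genes (11.1%). In 0 of the 8 were all arrays apart in that direction. With the samples scaled to the same spread, the order of the doses turned for *HUG1* (1.49), *RNR2* (0.51), *RNR4* (0.49) and the list median (0.50 in place of -0.32), which was -0.13 without sample 2 of 80 μg/ml. *RNR1* was at 1.04 and 1.498 against 1.19 and 0.51. The 16 checkpoint genes had medians of 0.51 and 0.32 against 0.20 and 0.10. At an unadjusted p under 0.05, 6 were lower and 0 higher, beside 11.1% and 9.82% of all genes. At an adjusted p under 0.05, 6 were above untreated cells at 40 and 1 at 80 μg/ml. The shares of all genes above untreated cells were 13% and 2.11%. *CHK1*, a checkpoint kinase, had 1.81 and 1.05 against 0.55 and 0.25 (difference -1.03), *TEL1*, the ATM kinase of yeast, 1.37 and 1.00 against 0.36 and 0.31 (-0.85), and *MEC3*, a subunit of the checkpoint clamp, 1.12 and 0.37 against -0.46 and -0.04 (-0.99). Named after their values were seen, *RAD53* had 1.54 and 0.92 against 0.66 and 0.38 and *DUN1* 2.31 and 1.64 against 1.52 and 1.32, and both overlapped between doses on single arrays. With scaled samples *DUN1* turned to 0.21, and without sample 1 of 40 μg/ml the median difference of the checkpoint list was -0.22 in place of -0.39. The 35 genes of G1 and S phase under MBF and SBF, which include *PCL1*, had medians of 0.21 and 0.31 against 0.02 and 0.14, with 12 lower and 2 higher. *POL30*, the sliding clamp PCNA, *POL1*, a DNA polymerase, and *CDC8*, thymidylate kinase, differed by -0.92, -0.77 and -0.90.

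At an unadjusted p under 0.05, a few zinc genes had lower and some iron genes higher ratios at 80 μg/ml, while drug response genes lay on both sides. The 15 zinc genes had medians of -0.24 and -0.18 against -0.41 and -0.31, and 5 of them had a difference above 0. Against 11.1% of all genes lower and 9.82% higher at an unadjusted p under 0.05, 3 of the zinc genes were lower and 0 higher. Beside *ZPS1* these were *ZAP1*, the regulator itself (0.35 and 0.14 against -1.14 and -1.32, difference -1.47, limma adjusted p = 0.0796), and the transporter *ZRT2* (0.98 and 0.50 against -0.50 and -0.43, difference -1.20). The median difference of the list, -0.37, was -0.23 without sample 1 of 80 μg/ml and -0.26 without sample 2 of 40 μg/ml. The other main transporter, *ZRT1*, had -0.61 and -0.08 against -0.24 and -1.47. The iron regulon, whose median of 0.30 lay just inside the limit set for separate description, had 9 of 29 genes higher and 0 lower. Besides *FET3* and *FTR1*, and named after their values were seen, *TIS11*, an mRNA-binding protein made when iron is short, had -0.55 and -0.67 against 1.05 and 0.84 (difference 1.56, limma adjusted p = 0.072), the siderophore transporter *SIT1* 0.64 and 0.39 against 2.30 and 1.77 (1.52, limma adjusted p = 0.0938) and *ARN1* 0.02 and 0.23 against 1.02 and 1.33 (1.05). The higher ratio of *TIS11* stood on a dimmer untreated signal, with mean untreated ranks of 49.2 at 40 and 15.9 at 80 μg/ml and treated ranks of 34.6 and 28.5. The mean treated ranks of *SIT1* (41.0 and 63.2) and *ARN1* (26.9 and 47.2) were higher at 80 μg/ml. The 17 targets of Pdr1 and Pdr3 were above untreated cells at both doses (medians 1.04 and 0.85 against 1.07 and 0.94). At an adjusted p under 0.05 this held for 12 and 11 of them, beside 13% and 2.11% of all genes. Between doses 4 were higher and 2 lower. The efflux pump *SNQ2* had 0.26 and 0.86 at 40 and 2.06 and 1.74 at 80 μg/ml (1.34, SE 0.28, limma adjusted p = 0.113) and the acyltransferase *ICT1* 1.27 and 0.87 against 1.82 and 2.00 (0.84), whereas the pumps *PDR15* (2.27 and 1.45 against 0.08 and 0.14, difference -1.75, limma adjusted p = 0.0938) and *PDR5* (2.55 and 2.502 against 1.82 and 1.69, -0.77), named after their values were seen, had lower ratios at 80 μg/ml. For *ICT1* the mean untreated rank was 77.5 at 40 and 39.6 at 80 μg/ml and the treated rank 89.6 and 77.5, so that its untreated signal was dimmer at 80 μg/ml. *SNQ2* had untreated ranks of 57.5 and 49.4 and treated ranks of 67.7 and 87.1.

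In the cell wall integrity pathway, which a kinase cascade ending in Slt2 carries, the 24 genes were also divided, with 6 higher and 3 lower at an unadjusted p under 0.05 and medians of 0.02 and -0.05 against 0.18 and 0.35. *SLT2* had -0.73 and -0.48 at 40 and 0.80 and 0.50 at 80 μg/ml (difference 1.26, SE 0.24, limma adjusted p = 0.106), the sensor *MTL1* -0.78 and -0.62 against 0.57 and 0.61 (1.29, SE 0.23, limma adjusted p = 0.0938) and the phosphatase *PTP2* -0.90 and -0.72 against -0.13 and 0.56 (1.02). *WSC4* and *PST1* were among those that were lower.

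The 25 genes of pheromone response and mating had medians of -0.10 and -0.02 at 40 and -0.36 and -0.51 at 80 μg/ml, with 9 lower and 1 higher. *FAR1*, which arrests cells for mating, had -0.11 and -0.14 against -1.48 and -1.86 (difference -1.54, SE 0.24, limma adjusted p = 0.0796). *AGA2* had 0.04 and 0.02 against -1.14 and -0.995 (-1.09), and *ASG7*, expressed in MATa cells, 0.20 and 0.43 against -1.22 and -0.70 (-1.27). The mating-type signal moved with this list, and its part in these differences was not tested. *AGA2* was at untreated ranks of 13.5 to 18.9 on the arrays of 40 μg/ml, and *FAR1* and *ASG7* had mean untreated ranks of 30.5 and 15.8 at 40 and 66.9 and 53.8 at 80 μg/ml, so that the ratios at 40 μg/ml were read from dimmer spots. The MATalpha genes had the reverse, with *STE3*, the a-factor receptor, at -0.28 and -0.40 against 0.67 and 0.95 and *SAG1* at -0.96 and -0.71 against 0.11 and 0.48, where they were dim at 80 μg/ml.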

How the data were processed

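Per the labels and the study's methods, RNA of treated and untreated cells was copied into cDNA, labelled with 3DNA dendrimers, hybridized to spotted genome arrays and scanned, in part by students of a genetics course. The authors gridded the images with MagicTool 2.1, with an adaptive circle with a radius of 3 to 8 pixels. The deposited array files give foreground and background intensity of both channels, as mean and as summed pixel brightness, for 6688 features, of which 85 were blank and 23 were controls. A second deposited table holds the authors' processed ratio of each feature as a signed fold change, and it served only as an alternative, because its normalization is not given in the sources used here. The methods mention 2 copies of the genome on each array, whereas the files hold 1 value per feature. No depth applies to arrays.

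Mean pixel brightness was used, its background was corrected with normexp (offset 50), and a loess curve fitted to the gene spots of an array alone was taken off its ratios, in limma 3.58.1 (R 4.3.3). Ratios were turned to treated over untreated, spots of a gene were averaged, and each dye-reversal pair was averaged to 1 value per biological sample. A linear model with 1 mean per dose and empirical Bayes moderation (2 residual and 5.66 prior degrees of freedom) gave the difference, adjusted over 6388 genes with the Benjamini-Hochberg method. A spot counted as above the blanks where it exceeded their median by 3 median absolute deviations. Normalization within arrays sets the middle of all ratios to 0, so a change shared by most transcripts is not seen. The procedure was tested on simulated data. Systematic names were matched to RefSeq symbols for 5848 genes.

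Named genes were those that passed; the 8 with the largest difference in each direction among genes with all 8 arrays apart, an unadjusted p under 0.05 and at least 3 arrays a dose above the blanks; and, in each described list, up to 3 members with the smallest p in the direction of its median; and *HUG1*, *RNR2*, *RNR3* and *RNR4*. All other genes were chosen after their values were seen. The members and lists were chosen with earlier results of these data known. Lists were described where they held at least 5 measured genes and their median lay 0.3 from that of all genes or a member passed. A gene list and a gene that met these rules are not reported here.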

Additional observations from a re-analysis of the deposited data

Results flagged for a closer look

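Responses at the 2 doses differed by the test of the difference itself for 9 genes (limma, adjusted p under 0.05). The difference of log2 ratios, 80 minus 40 μg/ml, was -3.65 for *INO1*, -2.55 for *HSP26*, -2.16 for *WSC4*, -2.08 for *ZPS1*, -1.84 for *NFG1* and -1.83 for *YHR033W*, and it was 1.99 for *YGR035C*, 2.55 for *PCL1* and 3.40 for *DSE2*. The treated signal of *NFG1* at 40 μg/ml exceeded the blanks on 0 of 4 arrays, and *DSE2* at 80 μg/ml did so on 1 of 4 in each channel.

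Of 85 genes named by the rules or after their values were seen, a further 14 had all 4 arrays of one dose above 0 and all 4 of the other below. Their differences did not pass the adjusted test. Many of the named genes were chosen from these same values, and the share over all genes was not computed, so that the count is no result about these genes. Lower at 80 μg/ml were *MOG1* (-1.84), *OPI3* (-1.44), *CHO1* (-1.31), *ZRT2* (-1.20) and *CHO2* (-1.11). Higher at 80 μg/ml were *HSP104* (0.77), *RRN3* (0.80), *RPC37* (0.83), *FAA4* (1.14), *SCL1* (1.14), *SLT2* (1.26), *MTL1* (1.29), *TIS11* (1.56) and *FET3* (2.26). Among the 4 arrays of each dose, no array of the 9 genes above stood apart by Dixon's criterion.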

How the results depend on the processing

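Of the genes that differed between doses, 9 passed (3 higher and 6 lower at 80 μg/ml). With plain background subtraction 0 of 5943 genes passed in limma (0 higher, 0 lower), while 905 had an unadjusted p under 0.05. Summed in place of mean pixel brightness gave 3 (1 and 2), an offset of 0 gave 3 (1 and 2), the deposited ratios gave 5 with 3 lower, arrays with treated cells in Cy5 only gave 14 with 10 lower and in Cy3 only 16 (6 and 10), array weights 31 (11 and 20), and samples scaled to 1 spread 283 (129 and 154). Median centring, no background correction and bright spots only gave 8, 9 and 6. The 9 genes kept their direction in every setting that measured them. Of the 9, 0 passed with subtraction, 3 with summed brightness, 3 with an offset of 0, 5 with the deposited ratios, 7 with Cy5 only, 6 of 7 measured with bright spots only, 8 with median centring, no background correction, scaled samples or Cy3 only, and 9 with array weights and without any 1 sample.

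Without 1 sample, 29 to 2339 genes passed (13 to 1148 higher, 16 to 1191 lower): 256 without sample 1 and 2339 without sample 2 of 40 μg/ml, and 42 and 29 without samples 1 and 2 of 80 μg/ml. The lone sample is then assumed to vary like the other dose. The replicate number as a block gave 440 genes (182 and 258), and the crossed pairing, chosen after seeing the data, 830 (379 and 451). Same-numbered samples deviated with r = -0.136, and the labels tie them to nothing shared.

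Against untreated cells, 1489 genes passed at 40 μg/ml, and 389 with subtraction, 1284 with scaled samples, 885 with Cy3 only, 721 with array weights and 1080 to 3059 without 1 sample. At 80 μg/ml 225 passed, and 53 with subtraction, 1294 with scaled samples, 469 with the replicate block, 702 crossed, 1293 with array weights and 82 to 1415 without 1 sample.

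With scaled samples the sign turned for *HUG1* (1.49), *PDR5* (0.11), *DUN1* (0.21), *RNR4* (0.49) and *RNR2* (0.51), and the median of the Dun1 and Crt1 list became 0.50. Over 17 other settings the median difference came as near to 0 as 0.03 for fatty acid synthesis, 0.11 for histones and -0.098 for the mating list. *RNR3* was at -0.0016 with summed brightness. The causes were not tested. With 2 samples a dose, 1 spread borrowed across genes decides most calls, dim spots bound ratios, and dose, array series and mating-type signal cannot be told apart.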
